A study of Mus musculus with 6 samples.

Results

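A single-stimulus array of mProx24 cells was compared with the control array to describe which transcripts differed after 1 stimulus given at 20% oxygen. mProx24 is a cell line of mouse proximal tubular cells, of strain C57B6 per the labels, and RNA was hybridised to 1 single-colour Agilent array per condition. The deposited data name this array in conflicting ways. Its scanner output is labelled high FFAs (free fatty acids, given as 150 µM palmitate bound to 0.15% bovine serum albumin for 9 hours), whereas the same values stand in the deposited value table in the column labelled high glucose. The SD of the log2 difference between that column and these scanner values over 62976 spots was 2.89e-07. The converse holds for the other single-stimulus array, and the other 4 arrays matched under their own labels. The labels do not settle which stimulus the cells received, so the array is called the single-stimulus array, and no stimulus is assigned to it or to the other single-stimulus array. The control cells were at 20% oxygen with neither stimulus, under the label abbreviations NG and PBS. The sample annotation lists 0.15% bovine serum albumin for every array, control included. No array of the pair carried hypoxia or rapamycin, and the sources used here give no glucose concentration.

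The comparison used 2 of the 6 arrays in the series. Each gene was read from its brightest probe by mean level over the 6 arrays, which gave 34733 gene names, and 16200 of them were well above background on both arrays by the scanner software's call and form the measured genes. A level is the log2 signal of a probe minus the log2 75th percentile of its array, so that 0 is the brightness of that percentile, and levels of different genes are not compared with each other. Each condition had a single array, so there was no replicate, no test was made and no p-value exists. Some differences are given with the software's own error of the 2 signals. This error had a median of 0.205 over the measured genes and describes the spots, not cultures. Treatment and the array itself cannot be told apart.

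Txnip encodes an arrestin-like protein that binds thioredoxin and restrains glucose uptake, and its relative Arrdc4 acts in a similar way on glucose uptake. Both are classical targets of MondoA and ChREBP, a pair of transcription factors that are activated by glucose phosphates and bind with their partner Mlx to paired E-box-like sites called carbohydrate response elements. The proximal tubule reabsorbs filtered glucose and burns fatty acids as its main fuel. Sterol genes are controlled by SREBP2, which is released when membranes of the endoplasmic reticulum are low in cholesterol.

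Promoter stretches are shown for Txnip and Arrdc4, the glucose-responsive genes with the largest differences, and for Hmgcs1 of the sterol genes described below. They come from RefSeq (GRCm38.p6) and run 5′ to 3′ on the strand of the gene. Capitals mark the paired sites (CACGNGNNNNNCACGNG) in Txnip at positions -85 to -69 from the start site, on the plus strand at chr3:96557842-96557918, the E-box (CACGTG) in Arrdc4 at -193 to -188, on the minus strand at chr7:68749396-68749461, and the sterol element (TCACNCCAC) in Hmgcs1 at -137 to -129, on the plus strand at chr13:119690184-119690252.
Txnip: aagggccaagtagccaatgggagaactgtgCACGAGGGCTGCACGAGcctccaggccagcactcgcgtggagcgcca
Arrdc4: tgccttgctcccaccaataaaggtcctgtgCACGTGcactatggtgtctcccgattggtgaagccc
Hmgcs1: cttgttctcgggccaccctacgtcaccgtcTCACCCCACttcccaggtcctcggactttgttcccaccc

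Txnip was 2.97-fold higher on the single-stimulus array than in control. Its level was 0.77 in control, 2.34 on the single-stimulus array, 0.55 on the other single-stimulus array, -0.87 in hypoxia, 3.33 with triple stimuli and 3.68 once rapamycin was added to them. The single-stimulus array thus lay above control, hypoxia and the other single stimulus and below both triple-stimuli arrays. The difference from control was 1.57 on the log2 scale (software error 0.20; probe at mm9 chr3:96365147-96365206). A second probe of the gene at mm9 chr3:96364206-96364265 gave 1.73, with a level of -1.76 in control and -0.03 on the single-stimulus array. It placed the 6 arrays in nearly the same order, with -1.71 on the other single-stimulus array, -3.15 in hypoxia, 0.66 in triple stimuli and 1.56 with rapamycin. Of the 4306 genes with at least 2 measured probes, Txnip was the 1 gene (0.0232%) whose probes were all at least 1.5-fold higher, a fold that equals 0.585 on the log2 scale.

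Arrdc4 was 1.77-fold higher, with a log2 difference of 0.82 (software error 0.21; probe at mm9 chr7:75886496-75886555). Its level was 0.41 in control, 1.23 on the single-stimulus array, 0.19 on the other single-stimulus array, 0.23 in hypoxia, 1.48 with triple stimuli and 1.28 with rapamycin besides. As for Txnip, the single-stimulus array and both triple-stimuli arrays were the high ones. The other 3 lay close together for Arrdc4, while Txnip was lower in hypoxia than on the other two. Of the 14 listed targets of MondoA and ChREBP, 9 were measured, 7 of them above 0, where 58.2% of all measured genes were above 0. Their median difference was 0.12, against 0.02 over all measured genes, and it ran from 0.03 to 0.36 over the 12 alternatives. At least 2-fold higher was 1 of the 9 (0.117% of all measured genes), and at least 1.5-fold higher were 2 (0.932%), namely Txnip and Arrdc4.

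The other 7 measured targets lay within 1.5-fold of control. Gpd1, which encodes the cytosolic glycerol-3-phosphate dehydrogenase, had a level of -1.97 in control and -1.51 on the single-stimulus array, the highest of the 6 arrays, and a difference of 0.46 (software error 0.24). Klf10, a zinc finger repressor, differed by 0.28, with 1.40 in control and 1.68 on the single-stimulus array, and its other 4 arrays lay higher than both, between 1.77 and 2.84. Mlxipl, the gene of ChREBP itself, differed by 0.12, and the bifunctional enzyme gene Pfkfb3 by 0.05. The fructose pathway genes Khk, at 0.02, and Tkfc, at -0.02, and the lipogenic regulator Mid1ip1, at -0.11, were within the software error, and Khk was at -0.02 with the normexp background (another background correction). Pklr, G6pc, Thrsp, Fgf21 and Rgs16 were not well above background on both arrays.

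**Figure D1:**
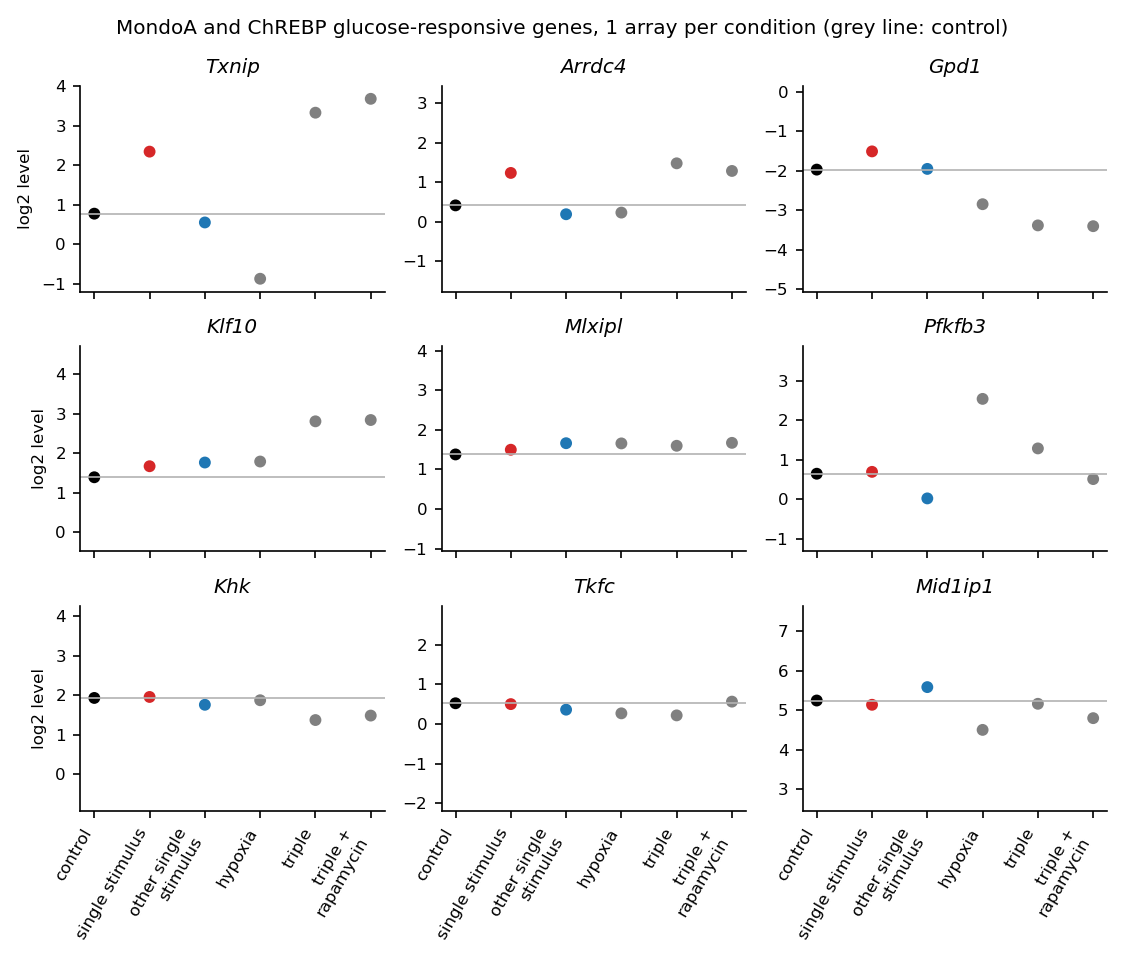
Log2 level of each of the 9 measured MondoA and ChREBP targets on each of the 6 arrays, with 1 point per array, a grey line at the control level and the same height of axis in every panel. Txnip and Arrdc4 stand above the control line on the single-stimulus array (2.34 against 0.77, and 1.23 against 0.41), while Khk and Tkfc lie on it.

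Most genes that encode the glucose-sensing machinery and its relatives were close to control. Of 15 measured genes of the arrestin-domain family and the Mondo and Max network, 8 were above 0 (53.3%, against 58.2% of all measured genes). The median of the 15 was 0.05, and its sign turned in 1 alternative. Within 1.5-fold lay 13 of the 15, the others being Txnip and Arrdc4. Mlxip, which encodes MondoA, had a difference of -0.26 (software error 0.23), its dimerisation partner Mlx -0.09, and Max, the partner of Myc, -0.21. The Max-network repressor Mga had the lowest value of the list, -0.32. The arrestin-domain genes Arrdc1, at 0.22, Arrdc3, at 0.08, and Arrdc2, at -0.04, did not share the size of the difference of Arrdc4. Myc differed by -0.15, with 1.51 in control and 1.36 on the single-stimulus array, against 2.96 on the other single-stimulus array.

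Paired sites of the kind printed for Txnip were found on either strand in 16 of 32851 RefSeq promoter windows (0.0487%), each of which runs from 250 bases before to 50 after a start site, and in 10 of the 9549 measured genes with such a window. Apart from Txnip, the differences of these genes ran from -0.54 to 0.11, with Fnip1, which encodes a partner of folliculin in nutrient sensing, the lowest. Fnip1 had a level of 2.36 in control and 1.82 on the single-stimulus array, where it was the lowest of the 6, and the other 4 lay between 2.75 and 3.06. The palindromic E-box CACGTG was found in 4 of the 7 glucose-responsive genes with a window, which were Arrdc4, Khk, Mlxipl and Pfkfb3, and in 11.7% of measured genes. The match alone thus went with differences from 0.02 to 0.82.

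Thioredoxin, the protein that Txnip binds, and its partners differed little. Of 20 measured genes of the thioredoxin and peroxiredoxin system, 17 were above 0 (85%, against 58.2% of all measured genes). The median of the 20 was 0.06, and the highest value was 0.23 for Glrx2, a mitochondrial glutaredoxin whose other probe gave -0.09. Txn1 itself had a level of 7.13 on both arrays and a difference of 0.00. Txnrd1, the cytosolic thioredoxin reductase, differed by 0.19 and the sulfiredoxin gene Srxn1 by 0.14. Genes of glucose uptake and glycolysis had a median of 0.03 over 25 measured members, with 0 past 1.5-fold in either direction. Within that list, Slc2a1, the ubiquitous glucose transporter, was at -0.08. Hk2, a hexokinase, differed by -0.23, with 1.88 in control and 1.65 on the single-stimulus array, the lowest of the 6 arrays, against 2.91 on the other single-stimulus array.

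The lowest median of the 25 pathway lists was that of cholesterol synthesis and uptake, and the shift was small. All 27 listed genes were measured, 24 of them below 0, where 41.8% of all measured genes were below 0. Their median was -0.25, and 0 of the 27 passed 1.5-fold (0.71% of all measured genes were at least 1.5-fold lower). The median stayed between -0.28 and -0.24 under every one of the 12 alternatives tried. The same genes had medians of -0.18 on the other single-stimulus array, 0.03 in hypoxia and -0.47 with triple stimuli, all against the same control. With rapamycin besides, the median was -0.80. The single-stimulus array was the lowest of the 6 for 0 of the 27.

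Idi1, the isopentenyl diphosphate isomerase, had a level of 5.36 in control, 4.94 on the single-stimulus array, 4.57 on the other single-stimulus array, 4.84 in hypoxia, 3.96 with triple stimuli and 3.58 with rapamycin besides. Control was the highest of these, and the difference of the single-stimulus array was -0.42 (software error 0.20). Nsdhl, at -0.40, and Lss, at -0.39, of the later sterol steps and Fdps, the farnesyl diphosphate synthase, at -0.39, were next. Fdps had its control level at 7.27 and its single-stimulus level at 6.87, below the other single-stimulus array at 7.47.

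The regulator Srebf2 was at -0.25 with a second probe at -0.46, and Hmgcs1, whose promoter stretch is shown, at -0.17. Second probes gave the same direction for Mvk, at -0.28 and -0.26, and Nsdhl, at -0.40 and -0.25, but Hsd17b7, counted below 0 at -0.21, had probes from -0.27 to 0.21. The exceptions above 0 were Stard4, a sterol carrier, at 0.23, Acat2 at 0.04 and Insig2 at 0.01. The second probes of Stard4 and Insig2 gave -0.46 and -0.32, and the sign of Stard4 turned in 1 alternative and that of Insig2 in 4. The sterol element TCACNCCAC was found in 1 of the 19 cholesterol genes with a promoter window and in 1.24% of all windows, and CCAAT, the site of the general factor NF-Y, in 17 of the 19 (89.5%), in 75% of fatty acid synthesis genes, 65.5% of ATF4 targets, 57.1% of glucose-responsive genes and 42.9% of all measured genes.

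Genes of fatty acid synthesis and desaturation, the SREBP1 targets, had a median of -0.13 over 19 measured members. Below 0 were 14 of them (73.7%, against 41.8% of all measured genes). They include Acss2 at -0.195, whose other probe gave 0.46, and Fads3 at -0.01. The sign of Acss2 turned in 1 alternative and that of Fads3 in 2. Hsd17b12, of fatty acid elongation, was the lowest, with 2.62 in control, 2.21 on the single-stimulus array and a difference of -0.41. The stearoyl-CoA desaturases Scd2, at -0.32, and Scd1, at -0.31, and the fatty acid synthase Fasn, at -0.29, were close to each other. Acaca, the acetyl-CoA carboxylase that commits carbon to fatty acids, was at -0.24, and its 4 measured probes gave -0.30 to -0.24. Above 0 were Srebf1 at 0.17, Acacb at 0.12, Tecr and Me1 at 0.07 and Elovl1 at 0.01, whose sign turned in 4 alternatives. In glycerolipid synthesis, Lpin1, a phosphatidate phosphatase, was at -0.52 and Gpam, which starts the pathway, at -0.43, while Cideb, a lipid droplet protein, was at 0.48, and the 18 measured members had a median of 0.03.

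**Figure D2:**
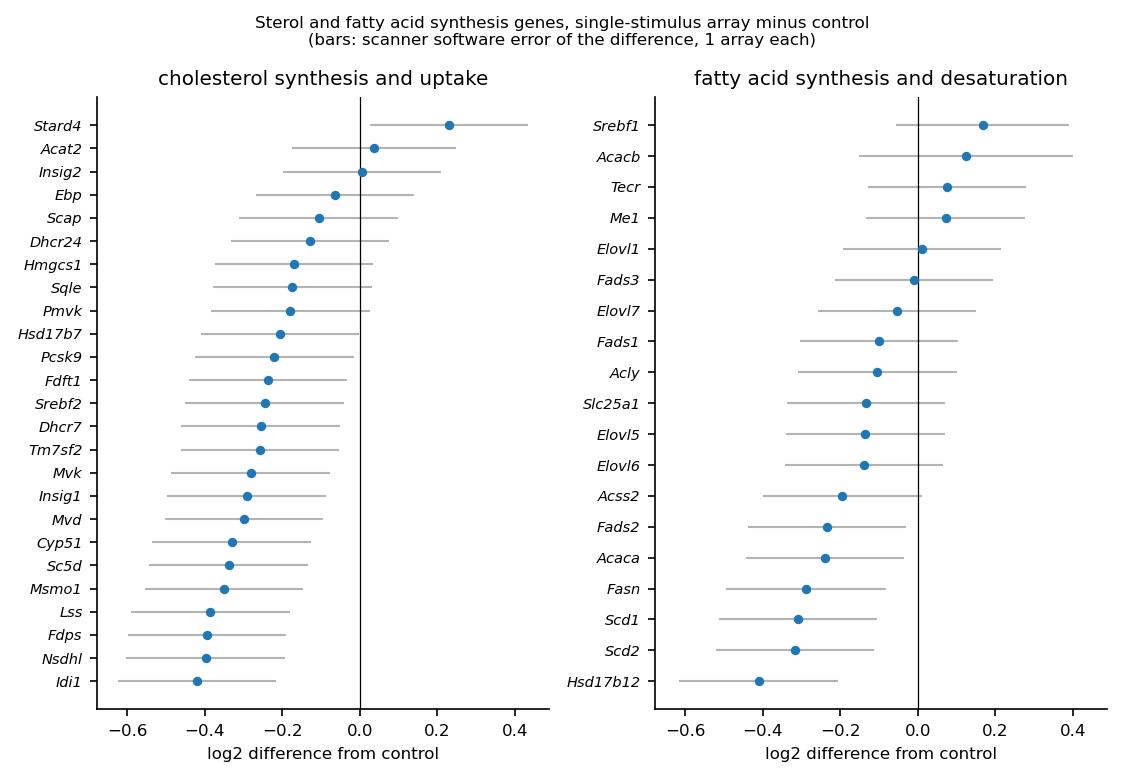
Log2 difference of the single-stimulus array from control for 25 of the 27 genes of cholesterol synthesis and uptake (left) and 19 of fatty acid synthesis and desaturation (right), with bars for the scanner software's error of each difference. In the left panel 22 genes lie left of 0, from Ebp at -0.06 to Idi1 at -0.42, and in the right panel 14 do.

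Genes that answer to fatty acids through PPAR lay mostly above control by small amounts. Of 34 measured genes of fatty acid uptake, oxidation and PPAR targets, 25 were above 0 (73.5%, against 58.2% of all measured genes), with a median of 0.06 against 0.02. Angptl4, whose secreted product blocks lipoprotein lipase, was the 1 member past 1.5-fold. It had a level of 1.29 in control, 1.90 on the single-stimulus array, 4.53 on the other single-stimulus array, 0.89 in hypoxia, 4.20 with triple stimuli and 4.0049 with rapamycin besides, so that its difference of 0.61 stood beside one of 3.25 on the other single-stimulus array. With the normexp background it was 0.49, short of 1.5-fold.

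Further members were higher by less. Ucp2, a mitochondrial carrier, was at 0.48, Acads, the short-chain acyl-CoA dehydrogenase, at 0.30, and Pdk4, which holds back pyruvate oxidation, at 0.24. Cpt1a, the gate of fatty acid entry into mitochondria, was read by 9 spots on each array and differed by 0.23 (standard error over spots 0.043). Its level was 1.61 in control, 1.84 on the single-stimulus array and 2.89 on the other single-stimulus array. Plin2, a lipid droplet coat, was at 0.28, with 4.87 in control, 5.15 on the single-stimulus array and 6.72 on the other. Angptl4, Cpt1a and Plin2 thus lay between control and the other single-stimulus array. How many of the 34 measured members did so was not counted. Acsl4, an acyl-CoA synthetase, was the lowest member at -0.28.

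ATF4 drives the integrated stress response, and its targets lay at or slightly below control. Of 35 measured members, 26 were below 0 (74.3%, against 41.8% of all measured genes), with a median of -0.09 and 0 past 1.5-fold. The single-stimulus array was the lowest of the 6 arrays for 22 of the 35, where it was so for 11.4% of all measured genes. Against the same control, the same members had a median of 0.97 on the other single-stimulus array and 0.24 in hypoxia. It was 1.17 with triple stimuli and 0.87 with rapamycin besides, so a level slightly below control was often the lowest of the 6. Trib3, a pseudokinase, had a level of 4.32 in control, 3.77 on the single-stimulus array, 6.62 on the other single-stimulus array, 5.51 in hypoxia, 7.04 with triple stimuli and 6.47 with rapamycin besides. It was lowest on the single-stimulus array, with a difference of -0.55. Cth, which makes cysteine, gave -0.52 and -0.45 with its 2 probes, the proline synthesis gene Pycr1 -0.44 and the mitochondrial folate enzyme Mthfd2 -0.36.

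The stress factors themselves were near control on the single-stimulus array. Atf4 differed by 0.01, with 7.67 in control, 7.68 on the single-stimulus array and 8.64 on the other. Ddit3, which encodes CHOP, differed by -0.22, with levels of 1.06 and 0.85, against 3.89 on the other single-stimulus array. Atf3 was at 0.20, with 0.39 and 0.59 against 3.38. Ppp1r15a, a phosphatase subunit that relieves the stress block of translation, was at 0.05. Chaperones of the endoplasmic reticulum had a median of 0.03 over 26 measured genes and 0 past 1.5-fold, with Hspa5, the main chaperone of the compartment, at 0.09.

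Genes of autophagy and the lysosome had a median of -0.04 over 31 measured members. Below 0 were 19 of them (61.3%, against 41.8% of all measured genes). The single-stimulus array was the lowest of the 6 for 13 of the 31, where it was so for 11.4% of all measured genes. Sqstm1, a cargo receptor of autophagy, had a level of 3.26 in control, 2.97 on the single-stimulus array, 4.61 on the other single-stimulus array, 3.22 in hypoxia, 4.80 with triple stimuli and 4.30 with rapamycin besides. Its difference was -0.29, as was that of the lysosomal sialidase gene Neu1, and the hexosaminidase subunit gene Hexa was at -0.26. Map1lc3b, which encodes a coat protein of the autophagosome, was at 0.10, and Tfeb, a master regulator of lysosomal genes, at 0.22. The median of the same list was 0.34 on the other single-stimulus array, -0.03 in hypoxia, 0.08 with triple stimuli and 0.08 with rapamycin besides.

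**Figure D3:**
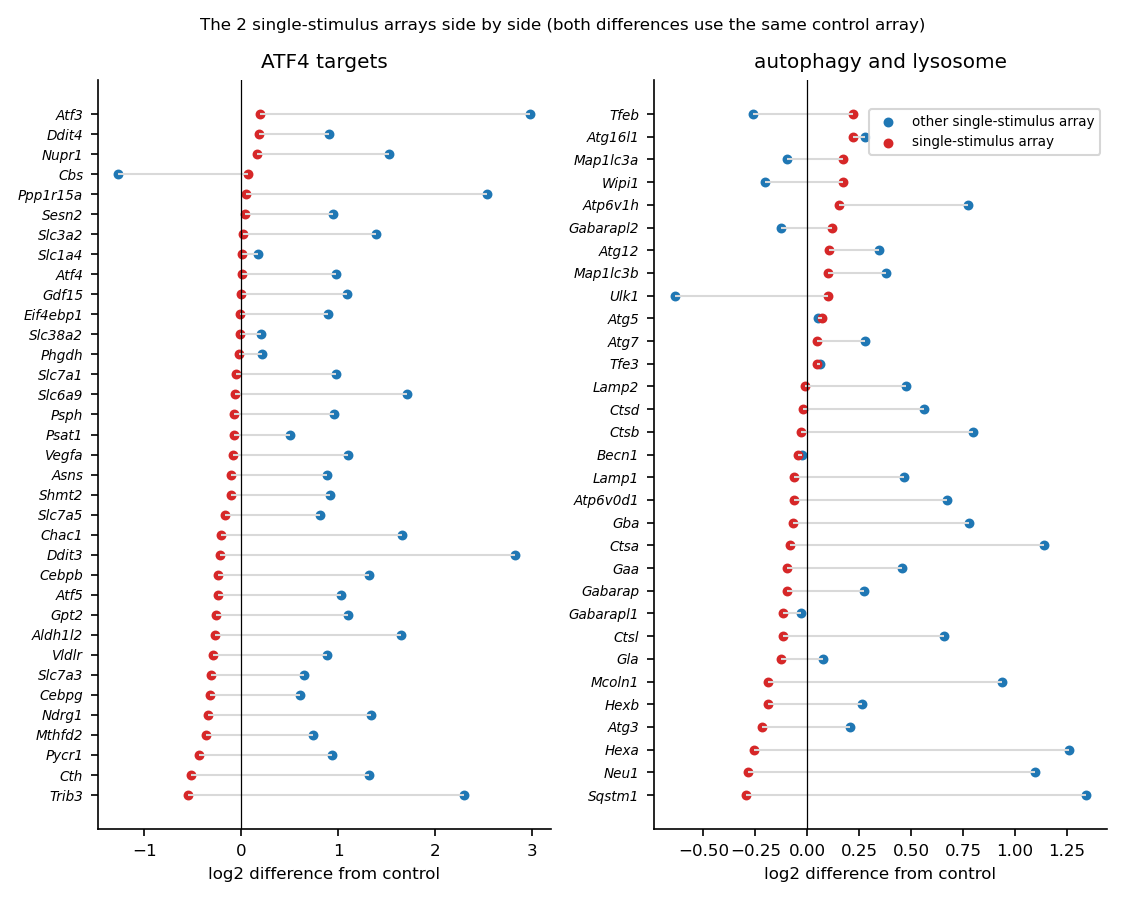
Log2 difference from control of 35 ATF4 targets (left) and 31 autophagy and lysosome genes (right) on the single-stimulus array (red) and the other single-stimulus array (blue); both differences use the same control array, so the points of a row share it. Red points lie near 0, with medians of -0.09 and -0.04, and most blue points lie to their right, with medians of 0.97 and 0.34.

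Redox genes lay mostly above control, again by small amounts. Of 26 measured NRF2 targets and glutathione genes, 19 were above 0 (73.1%, against 58.2% of all measured genes), with a median of 0.08 and 0 past 1.5-fold. Gpx1, the main cytosolic glutathione peroxidase, had a level of 4.53 in control and 5.06 on the single-stimulus array, the highest of the 6 arrays, and differed by 0.53. Nqo1, a quinone reductase, went from 0.70 to 1.21, also the highest of the 6, a difference of 0.51. The glutathione transferase gene Gsta3 gave 0.57 and 0.31 with its 2 probes, and Hmox1, the inducible haem oxygenase, 0.38. The metallothionein genes Mt1 and Mt2 were lower, both at -0.32, and the single-stimulus array was the lowest of the 6 for both. Oxidative phosphorylation genes lay within a narrow band, from -0.10 to 0.14 over 30 members with a median of 0.02, whose sign turned with quantile normalisation (-0.01) and the normexp background. The single-stimulus array was the highest of the 6 for 18 of these 30, against 23.6% of all measured genes. The list median was no higher than that of all measured genes (0.02). Against the same control, the list had medians of -0.14 on the other single-stimulus array and -0.14 in hypoxia. With triple stimuli the median was -0.25, and with rapamycin besides -0.42.

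In the fibrosis and TGF-beta list, 20 of 26 measured members were above 0 (76.9%, against 58.2% of all measured genes) and the median was 0.12. Tgfbi, which encodes a matrix protein induced by TGF-beta, had a level of 0.53 in control, 1.17 on the single-stimulus array, -1.90 on the other single-stimulus array, 1.25 in hypoxia, -0.69 with triple stimuli and -0.85 with rapamycin besides. It was the 1 member past 1.5-fold, with a difference of 0.64 (software error 0.21; mm9 chr13:56740460-56740519). Id1 and Id3, inhibitors of basic helix-loop-helix factors and targets of BMP signalling, differed by 0.55 and 0.43. Id1 went from 3.69 to 4.24, and Id3 from 3.86 to 4.29, the highest of the 6 arrays in both, while the other single-stimulus array stood at 2.66 and 1.77. The BMP receptor gene Bmpr1a, named as a bright gene and not a member of the list, was lower, at -0.56. For Bmpr1a it was control that stood apart, since its level of 1.92 there was the highest of the 6 arrays. The single-stimulus level lay within the range of the others. Loxl2, a list member that crosslinks collagen, gave -0.43 with 1 probe and up to 0.04 with its other probes. Col1a1, Col1a2, Col3a1 and Acta2 were not well above background on both arrays.

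Of the remaining lists, immediate early genes had a median of 0.05 over 22 members, with Fosb at 0.78 from a dim probe (software error 0.36), Klf2 at 0.53 and Junb at 0.36. Inflammation genes under NF-kB had a median of 0.02 over 17, with the neutrophil attractant gene Cxcl2 at -0.76 as the 1 member past 1.5-fold (software error 0.32) and Cxcl1 at 0.07. With the normexp background Cxcl2 was at -0.24 and Fosb at 0.345, short of 1.5-fold. The 20 measured HIF targets other than glycolytic genes had a median of -0.05, with the clock gene Bhlhe40 at -0.37. Cell cycle genes (0.04 over 32), ribosome biogenesis (0.05 over 26), apoptosis and p53 targets (0.02 over 23) and interferon-induced genes (-0.07 over 13) held 0 members past 1.5-fold. The lists of gluconeogenesis (0.01 over 6), the pentose phosphate pathway (0.00 over 8), the polyol and hexosamine pathways (-0.07 over 11) and the circadian clock (-0.05 over 11) also held 0. The sign of the median turned in 5 of the 12 alternatives for gluconeogenesis, in 2 for the apoptosis and interferon lists, and in 1 for the immediate early genes, the pentose phosphate pathway and the list of glucose uptake and glycolysis. In the polyol list, Akr1b3, the aldose reductase that turns glucose into sorbitol, was at 0.28, with a second probe at 0.12.

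**Figure D4:**
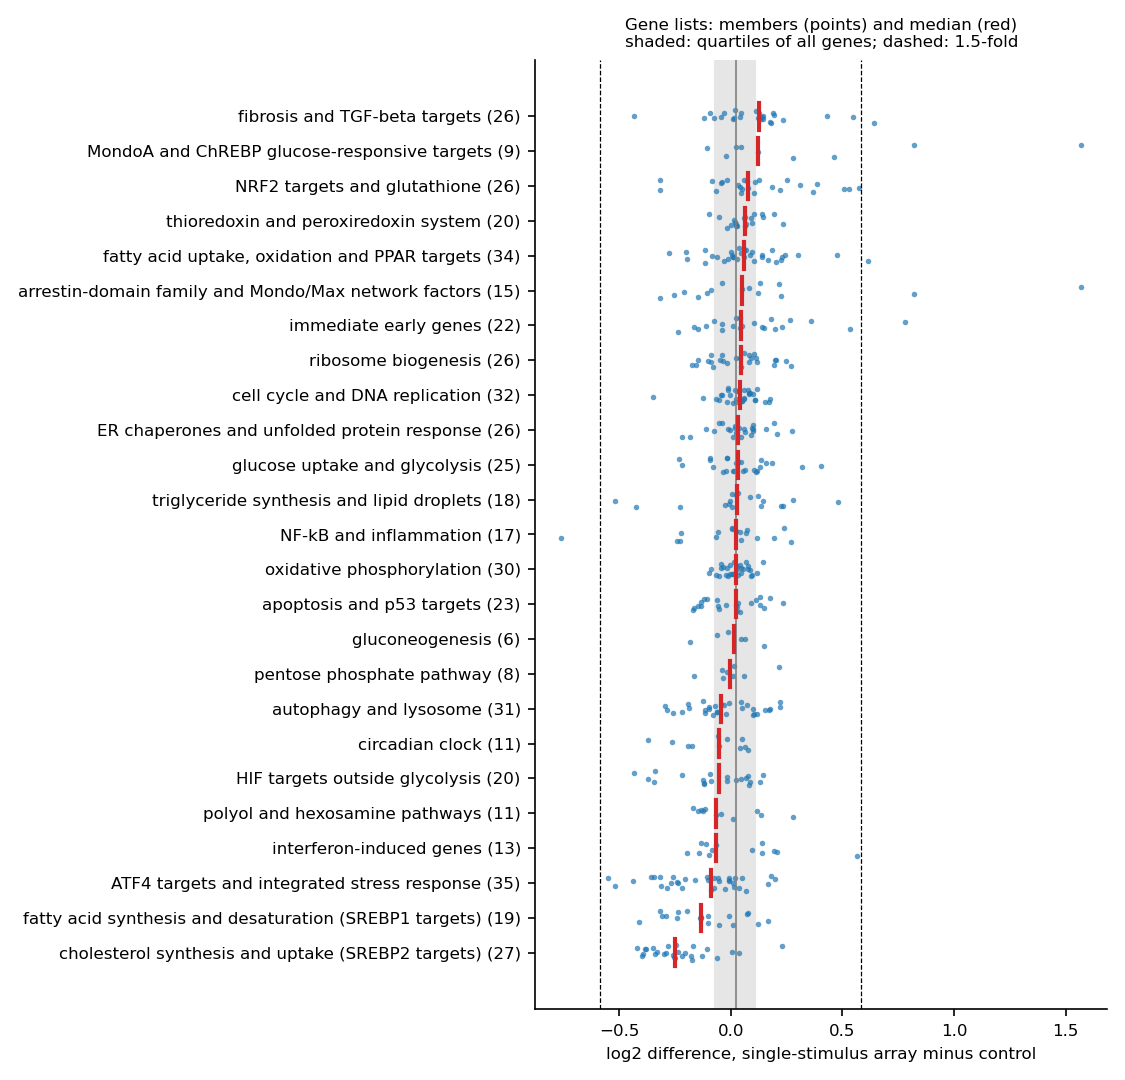
Log2 difference from control of the measured members of 25 gene lists (points; number of members in brackets), the median of each list (red bars) and the quartiles of all 16200 measured genes (shaded, -0.07 to 0.11). The medians run from -0.25 for cholesterol synthesis and uptake to 0.12 for the fibrosis and glucose-responsive lists, and few points lie past the dashed 1.5-fold lines.

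Over all measured genes the 2 arrays were close. The SD of the log2 differences over genes was 0.204, and 98.4% of genes lay within 1.5-fold. At least 2-fold higher were 19 genes (0.117%) and at least 2-fold lower 13 (0.0802%), and at least 1.5-fold they were 151 and 115. Past 1.5-fold were 1.64% of genes here, 8.60% on the other single-stimulus array, 8.38% in hypoxia, 16.5% with triple stimuli and 16.2% with rapamycin besides, all against the same control array. The 225 measured probes that were printed in 10 copies, whose spots had a median SD of 0.067 on the single-stimulus array, held 0 differences past 1.5-fold. Among these, the desmoplakin gene Dsp was the highest at 0.44 (standard error over spots 0.11) and Igf2r, the receptor that carries hydrolases to lysosomes, the lowest at -0.32 (0.047). Lmnb1, a nuclear lamina gene, was at -0.27 (0.026), and the glycosylation gene Alg14 at 0.30 (0.017).

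**Figure D5:**
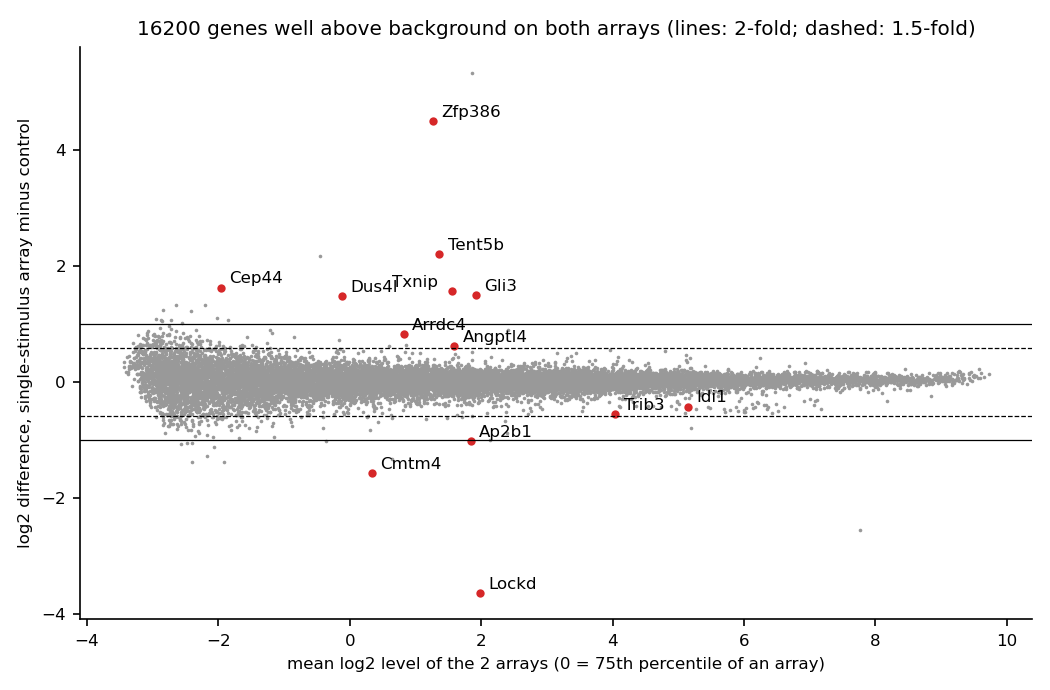
Log2 difference of the single-stimulus array from control (vertical) against the mean log2 level of the 2 arrays (horizontal) for 16200 genes, 1 grey point each, with named genes in red, solid lines at 2-fold and dashed lines at 1.5-fold. Most points lie between the dashed lines, and the spread is wider at low levels. Txnip at 1.57 lies above the upper solid line and Arrdc4 at 0.82 between the upper lines.

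For several of the largest differences, it was the control array that stood apart from all others. Of the 19 genes at least 2-fold higher, the control level lay outside the range of the other 5 arrays and the single-stimulus level did not for 7, the single-stimulus level alone did for 5, both did for 5 and neither for 2. Over all measured genes the control lay outside for 24.1% and the single-stimulus array for 33.8%. Zfp386, a zinc finger gene with the highest difference of a named gene, had a level of -0.98 in control and from 3.49 to 3.73 on the other 5 arrays, so that it gave 4.50, and another of its 3 probes gave -0.02 and their mean 1.52. A probe without a gene symbol showed the same pattern, with -0.80 in control. Gli3, a transcription factor of hedgehog signalling, was at 1.17 in control and between 2.55 and 2.75 on the other 5. Tent5b, a poly(A) polymerase, was at 0.26 in control, 2.47 on the single-stimulus array and 1.57 to 2.01 on the other 4. Dus4l, of transfer RNA modification, had -0.86 in control and 0.63 on the single-stimulus array, and the other 4 were at or above 0.67.

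For other genes the single-stimulus array stood apart from the other 5. Cep44, a centriole protein gene, had a level of -1.14 there and -2.77 to -2.40 on the other 5 arrays, a difference of 1.63 (mm9 chr8:59022949-59023008). The glutamate receptor gene Grik2 was at -1.48 there and between -2.72 and -2.51 elsewhere, a difference of 1.10. Both are dim and have 1 measured probe, and with the normexp background they were at 0.94 and 0.66. Among lower genes, Lockd, a long noncoding RNA gene next to Cdkn1b, was at 0.16 there and between 3.46 and 4.37 elsewhere, a difference of -3.64 (mm9 chr6:134901431-134901490). Il4i1, which encodes an amino acid oxidase, was at -3.00 there and between -2.53 and -1.92 elsewhere, at -1.06, and at -0.43 with the normexp background, short of 1.5-fold. Cmtm4 gave -1.57 with 1 probe and 0.02 with the other. Ap2b1, a clathrin adaptor subunit, was at 2.35 in control and 1.34 on the single-stimulus array, a difference of -1.01, but was as low, at 1.34, with triple stimuli and rapamycin.

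Genes read by several probes give a check within the array. All probes were at least 1.5-fold higher for Txnip alone, and at least 1.5-fold lower for 4 array names (0.0929% of the 4306), all of them genome regions without a gene symbol, looked up after the count was known. By the smallest difference over its probes, Txnip was followed by Inca1, a regulator of cyclin A, with 0.65 and 0.47, and Serinc2, a serine carrier family member, with 0.39 to 0.51 over 3 probes. On the lower side, Oxsm, of mitochondrial fatty acid synthesis, gave -0.91 and -0.57, Agfg2 -0.58 and -0.52, and Wnt4, a secreted signal of tubule formation, -0.50 and -0.39. With the normexp background Oxsm was at -0.37 and Inca1 at 0.31, both short of 1.5-fold. Anp32a and Hook1 show the reverse case, since 1 probe gave -0.87 and -0.77 and the other 0.11 and 0.30.

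Of the 34733 gene names, 211 were well above background on the single-stimulus array but not control, and 1090 on control but not the single-stimulus array. Of all spots, 41.2% and 43.8% were called so on these arrays. For these genes, the dim side was set to the higher of its own measured level and the dimmest signal called well above background on that array. This gives a bound where the dimmest signal was used and the measured difference where the own level was used. Among those with a gene symbol, this value was at least 2-fold higher for 17 of 88 and at least 2-fold lower for 12 of 447. Alpk1, which encodes a kinase that senses bacterial sugars, was at least 4.99-fold higher, with a level of -1.33 on the single-stimulus array, the 1 array where it was well above background, and -4.07 as measured in control. Ccdc24 was at least 4.77-fold and the ribonuclease gene Ang at least 3.44-fold higher, and for both control was the 1 array of the 6 not well above background. Vmn1r34, a vomeronasal receptor gene, was at least 2.45-fold and Gucy2g at least 2.31-fold lower, and both were well above background on control alone. Ank2, an ankyrin gene, was 2.29-fold lower as measured, with -2.10 in control and -3.29 on the single-stimulus array. The latter level was above that dimmest signal, so this fold is the measured difference and not a lower bound.

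Markers of the labelled cell type and of other cells were looked up. Of 28 proximal tubule markers, 11 were measured, among them the endocytic receptor genes Lrp2 and Cubn, the water channel Aqp1 and the transcription factor Pax8. Over all gene names, 16200 of 34733 were measured, a share that the proximal tubule markers did not exceed. The counts of measured markers thus do not set the proximal tubule apart. The phosphate and glucose transporters Slc34a1 and Slc5a2, the organic anion transporter Slc22a6, Anpep and Hnf4a, which define the mature segment, were not well above background on both arrays. Aqp1 had a level of 3.20 in control, 3.70 on the single-stimulus array and 2.0045 on the other single-stimulus array, a difference of 0.50, and Lrp2 differed by -0.19. All 12 markers of injured or dedifferentiated tubule were measured, with differences from -0.23 to 0.14. Of markers of other cells, 0 of 10 for fibroblasts and mesangium were measured, 2 of 8 for podocytes, 3 of 10 for endothelium, 1 of 14 for distal tubule and collecting duct, and 4 of 9 on the array for immune cells. Those measured were Cd68, Csf1r, Itgam and Cd3e of the immune list and Kdr, Flt1 and Plvap of the endothelial list. Synpo and Cd2ap of the podocyte list and Aqp2 of the distal list were also measured. Nphs1, Pecam1, Cdh5 and Ptprc were not among them.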

How the data were processed

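Total RNA of mProx24 cells was labelled with Cy3 and hybridised to 6 single-colour Agilent arrays on 1 slide, 1 per condition. The authors' scanner software was Agilent Feature Extraction 10.7.3.1, per the submitters' processing notes. Per the file headers, it gave a processed signal intensity per spot after background subtraction and spatial detrending. The deposited value table holds a ratio, that signal divided by about the 75th percentile of its array, a scale read from its values; it served to compare labels and as an alternative. The column medians of the deposited ratio were 0.0516 for these scanner values and 0.0505 for control, with no centring by gene; the direction is signal over percentile.

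From the intensities of 59305 non-control spots per array, log2 values were reduced by the log2 75th percentile. Marked outlier spots were left out and spots of a probe averaged. Of the spots, 41.2% were well above background on the single-stimulus array and 43.8% on control (40.3% to 43.8% over the 6), and 0 were saturated. Symbols were updated through RefSeq (GRCm38.p6), which held 22322 of 34733 names. Probe positions are mm9, per the files, and no annotation of that build was used, so exon or untranslated region is not given. No replicates exist, so genes past 2-fold or 1.5-fold were counted without a test, and the number of arrays limits the precision. The counting at 2-fold was run on simulated arrays with planted differences larger than that fold. Their noise was below the software error, so the run checks the code and not the precision of the counts. Promoter windows were searched on both strands.

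The members and the 32 lists were chosen with earlier results of these data known. Named genes were the 15 highest and 15 lowest, the 10 per direction repeated by all probes, the 10 highest and lowest among bright genes (level at least 0 on both arrays), 4 per list, all of the glucose, cholesterol and fatty acid synthesis lists, and up to 3 bounds per direction, of which the text gives a part. The genes Fnip1, Txn1, Slc2a1, Hspa5, Atf4, Atf3, Ddit3, Ppp1r15a, Map1lc3b, Cpt1a, Pdk4, Myc, Max, Mlx, Arrdc1, Arrdc2, Arrdc3, Mt1, Mt2, Lrp2, Cxcl1 and those printed in 10 copies were added for their roles or after their values were seen, as was the search for CCAAT. Alternatives were 3 other scalings, the normexp background (offset 50; limma 3.58.1 in R 4.3.3), 3 other filters, the mean of all probes, outlier spots kept, the first 64 rows of spots left out, and genes with control outside the other arrays left out. Leaving out whole probes with an outlier spot was added after seeing the data. Python 3.11.15, numpy 2.4.6 and pandas 2.3.3 were used. Values of some single list members are not reported here, though the counts and medians of the lists include them.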

Additional observations from a re-analysis of the deposited data

How the results depend on the processing

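Of 2651 values compared over 12 alternatives, 2544 moved by less than the spread of single spots (0.0972 on the log2 scale), 106 moved by more, and 1 value past 1.5-fold changed direction: Cmtm4, at 0.0223 without the first 64 rows of spots, where its other probe stands for it. Smaller values also turned sign in some alternatives: Stard4, Acss2, Insig2, Elovl1, Fads3 and Khk, 2 marker genes (Aqp2, Cd2ap), the list medians named above as turning, and those of the proximal tubule, endothelium and immune markers. Txnip kept values from 1.503 to 1.65 and Arrdc4 from 0.70 to 0.82. The counts at least 2-fold higher, 2-fold lower, 1.5-fold higher and 1.5-fold lower were 7, 4, 18 and 23 with the normexp background, whose offset shrinks dim differences; 54, 49, 302 and 257 for genes well above background on at least 1 array; 3, 3, 8 and 13 for bright genes; 1305, 882, 2683 and 2031 with no filter; and 7, 8, 91 and 73 without genes whose control level lay outside the other arrays. Of 1.5-fold calls 56.8% were higher, against 43.9% with the normexp background and 38.1% for bright genes, and no filter moved the median of all genes to 0.12. With no filter, the medians of the glucose-responsive, triglyceride and interferon lists were 0.36, 0.14 and 0.0948, more genes entering each list. Without genes whose control stood apart, those of the ATF4 and interferon lists were -0.20 and 0.12. No paired analysis was possible because each condition had 1 array, which also bars leaving out a replicate. Dim probes had only the background call as a limit, and the label conflict leaves the stimulus unassigned.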
